A study of Homo sapiens with 7 samples.

Results

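TRPS1 encodes a zinc finger protein with a GATA-type DNA-binding domain and Ikaros-type fingers, and it acts mainly as a transcriptional repressor. The gene is mutated in trichorhinophalangeal syndromes, is expressed in mammary epithelium and is used by pathologists as a marker of breast carcinoma. Its contacts were examined in 3 established human cancer cell lines by H3K27ac HiChIP. In that assay, nearby DNA ends are ligated in nuclei, fragments carrying acetylation of lysine 27 of histone H3, a mark of active promoters and enhancers, are enriched with an antibody, and both ends of each ligated fragment are sequenced. A loop here is a pair of different enriched regions (anchors) on the same chromosome joined by read pairs.

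The loops described were those with an anchor over a TRPS1 promoter, taken as 500 bp centred on any annotated start site, together with all loops that had both anchors from 116000001 to 117000000 on chromosome 8, the 1 Mb window that holds the gene. This gave 306 of 354783 loops in all: 264 in T-47D, 11 in LNCaP and 31 in Ishikawa. The rule itself holds no read pair count, but TRPS1 was proposed with its counts in these data known. The window was proposed for its T-47D share of read pairs against the other lists. Ranks of the gene and the window below are therefore descriptions. T-47D is a line from breast carcinoma (1 sample), LNCaP from prostate carcinoma (2 samples) and Ishikawa from endometrial adenocarcinoma (4 samples). Of the Ishikawa samples, 2 had been exposed to DMSO and 2 to 10 nM 17β-estradiol (E2) for 1 h, and the labels give no treatment for T-47D or LNCaP. No genetic change is named for any line, and nothing says whether samples came from separate cultures.

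The samples had been combined into 1 loop list per line, so no value has a replicate error and no test between lines was possible. The T-47D list held 42027 loops with 351260 read pairs, the LNCaP list 149226 loops with 1805322 read pairs and the Ishikawa list 163530 loops with 1040329 read pairs. The LNCaP list thus held 5.14 times the loop read pairs of T-47D and the Ishikawa list 2.96 times, which are read pairs left after filtering and not sequencing depth. Per the study's methods the Ishikawa samples were sequenced several times deeper than the others. The Ishikawa libraries were cut with DpnII and the others with MboI, and sonication, read length and sequencing depth followed the same split, so in any comparison with Ishikawa they and the line cannot be told apart. Of 6 genes chosen as typical of each line, 5 ranked highest in their own list for Ishikawa, 6 for LNCaP and only 2 for T-47D. In T-47D those were GATA3 and PGR, and 2 of its 6, TFF1 and KRT18, had no promoter loop there. Loops with fewer than 3 read pairs, or that missed the study's false discovery rate limit, had been removed, so a value of 0 means only that no loop passed both filters. The size of contacts removed by that limit is not known here. The 95% intervals of read pairs below cover counting error only, and PCR read pairs are not independent molecules. Those of shares and medians treat the anchors or loops of 1 list as independent, which they are not. No interval measures variation between samples.

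TRPS1 (ENSG00000104447.13_15) lies on the minus strand of chromosome 8, from 116420724 to 116821899 on hg19 (GRCh37), and is 401 kb long. Its 12 annotated transcripts have 12 start sites. The outermost site is at 116821899, and 9 sites lie together 140 kb or more downstream of it, between 116673905 and 116681710. The other 2 sites, at 116504448 and 116632297, were under no anchor in any list. Distances below are measured from the outermost start site, with upstream positive. The sequence of these regions is not shown here.

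TRPS1 had more read pairs in promoter loops than any other of 20163 protein-coding genes in T-47D and almost none in the other lines. Its promoters carried 2557 read pairs (95% Poisson interval 2459 to 2658) in 91 loops in T-47D. In LNCaP they carried 4 read pairs (1.09 to 10.2) in 1 loop, and in Ishikawa 3 read pairs (0.619 to 8.77) in 1 loop. These were 0.728% of all read pairs of the T-47D list, 0.000222% of the LNCaP list and 0.000288% of the Ishikawa list. The T-47D share was 3285 times that of LNCaP (exact 95% interval 1282 to 12067) and 2524 times that of Ishikawa (863 to 12249). The breadth of these intervals reflects the 4 and 3 read pairs of the other lists. By this measure TRPS1 ranked 1 in T-47D, 11206 in LNCaP and 10358 in Ishikawa. The measure sums loops over all start sites of a gene. For TRPS1 in T-47D these lay under separate anchors with 1434, 1068 and 343 read pairs, loops between them counting for both. The rank with 1 start site per gene was not computed.

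**Figure D1:**
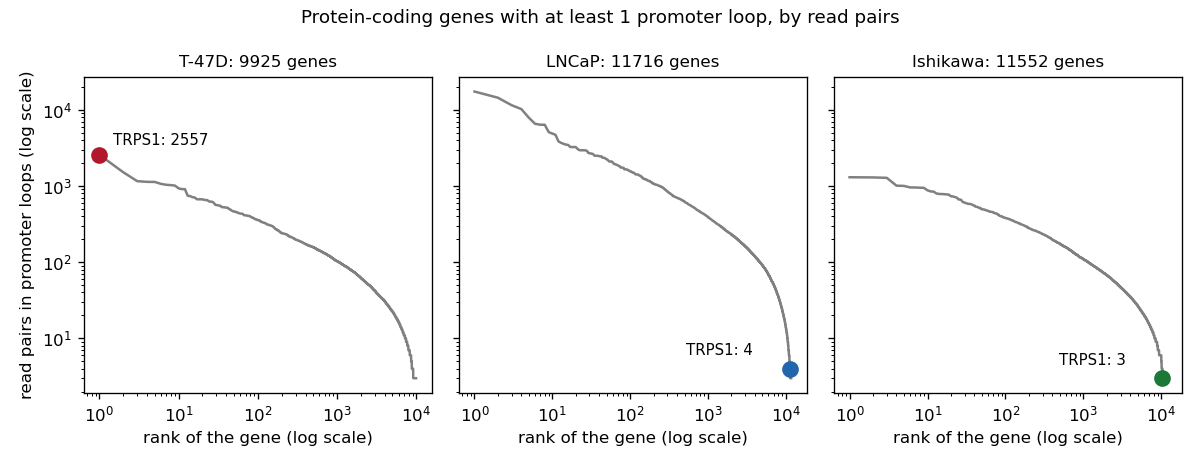
Read pairs in promoter loops (y axis, log scale) of every protein-coding gene with at least 1 promoter loop against the rank of the gene (x axis, log scale), with 1 panel per list and TRPS1 as a coloured point. TRPS1 is at the top of the T-47D curve with 2557 read pairs and at the bottom end of the LNCaP and Ishikawa curves with 4 and 3.

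A share of read pairs 4 or more times the higher of the other lists, with fewer than 3 read pairs in a list taken as 3, was found for T-47D in 10.9% of the 15299 protein-coding genes with a promoter loop in any list. TRPS1 was 1 of them. The corresponding percentages were 7.03% for LNCaP and 8.54% for Ishikawa. Anchors without any protein-coding promoter that were joined to a TRPS1 promoter are called linked distal anchors. There were 36 in T-47D, 1 in LNCaP and 1 in Ishikawa. Only TBL1XR1, with 37, had more in T-47D, where the 6989 genes with any had a median of 2.

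In T-47D, 3 anchors covered TRPS1 promoters, and each was among the most connected of the list. The inner anchor (116672562 to 116680632, 8.07 kb) lay over 5 of the start sites in the downstream group. It had 37 partners and 1434 read pairs, which ranked 10 and 4 among the 19386 T-47D anchors. The outer anchor (116813248 to 116824297, 11.1 kb) lay over the outermost start site and had 35 partners and 1068 read pairs, ranking 12 and 6. A small anchor between them (116681805 to 116683379, 1.57 kb) touched the promoter window of 1 further start site and had 22 partners with 343 read pairs, ranking 163 on each measure. The remaining 3 start sites of the downstream group fell in the gap between the inner and the small anchor.

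Wider anchors had more partners, so each was set against T-47D anchors of 0.8 to 1.25 times its width, a set that holds the anchor itself. Of the 54 for the outer anchor, 0 others had as many partners, and the median was 11.5. Of the 255 for the inner anchor, 2 others had as many, with a median of 9. Of the 4047 for the small anchor, 5 others did, with a median of 2. The 3 promoter anchors were also joined to each other. The inner and outer anchors shared 146 read pairs over a span of 142 kb, the inner and small anchors 111, and the small and outer anchors 31.

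LNCaP had a single anchor over the downstream start sites (116679667 to 116683125) and none over the outermost. Its only loop, of 4 read pairs, spanned 973 kb to an anchor over an exon of EIF3H (117651101 to 117657393). Ishikawa likewise had 1 anchor over the downstream start sites (116673344 to 116683127) and none over the outermost. It was joined by 3 read pairs to an anchor in a TRPS1 intron (116569362 to 116578635), 104 kb away, and that loop was in only 1 of the 4 separately sorted parts of the Ishikawa list. In both lines an anchor was therefore present over the inner promoters, with 1 partner each against a median of 5 for anchors of like width.

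In T-47D the 36 linked distal anchors reached in both directions from the promoters but were mostly upstream. Of these, 22 lay upstream of the outermost start site (61.1%, 95% Wilson interval 44.9 to 75.2), 12 overlapped the gene (33.3%, 20.2 to 49.7) and 2 lay beyond its end. Upstream anchors took 1185 of the 2241 read pairs to distal anchors, anchors in the gene 1050 and the 2 beyond it 6. By annotation 17 anchors were in introns, 4 over exons of any gene and 15 intergenic. All 10 anchors with more than 100 read pairs lay between -161 and 122 kb.

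Inside the gene the read pairs fell into separate groups along it. The anchor directly downstream of the inner anchor (116665322 to 116671687, intron, -153 kb) had 342 read pairs with the 3 promoter anchors, the most of any partner, of which 244 were with the inner anchor. Its neighbour at -161 kb (116659609 to 116662651, intron) had 104. The 5 anchors farther downstream in the gene, from -275 to -171 kb, had 4 to 25 read pairs each and 56 in sum. Between the inner and the outer promoters, 5 anchors held 548 read pairs. Of these, 3 lay close together at -29.2, -25.6 and -22.2 kb, with 167, 112 and 130 read pairs, 1 at -108 kb over an exon had 128, and 1 at -75.8 kb had 11.

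Upstream, contacts were densest in the intergenic stretch next to the gene. The 10 anchors from 25.9 to 122 kb upstream took 906 read pairs, 40.4% of those to distal anchors. The strongest of them (116845276 to 116850335, 25.9 kb upstream) had 232 read pairs, of which 122 were with the outer anchor, 91 with the inner and 19 with the small anchor. The anchors at 32.4, 78.7 and 122 kb followed, with 109, 130 and 103 read pairs. Farther out, 7 anchors inside LINC00536, a long noncoding RNA gene, from 152 to 365 kb upstream, held 213 read pairs, with 67 at the highest. The 3 intergenic anchors from 533 to 645 kb had 50 in sum, and 2 in an intron of EIF3H, at 901 and 906 kb, had 16. Read pairs thus declined with distance, and 1041 of the 1185 upstream read pairs lay within 250 kb.

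**Figure D2:**
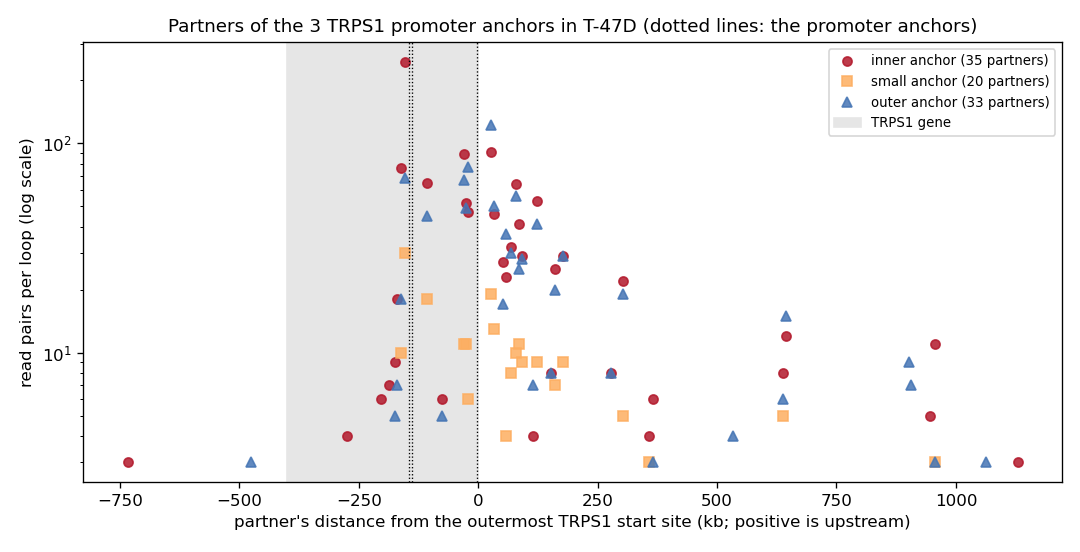
Read pairs per loop (y axis, log scale) of the inner (circles), small (squares) and outer (triangles) TRPS1 promoter anchors of T-47D with each partner that holds no TRPS1 promoter, against the distance of the partner from the outermost start site in kb (x axis). Shading marks the gene and dotted lines the promoter anchors; most strong partners lie from -161 to 122 kb, where circles and triangles stand at similar heights.

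Most distal anchors were joined to more than 1 of the promoter anchors. Of the 36, 18 were joined to all 3, 10 to 2 and 8 to only 1. Those joined to both the inner and the outer anchor numbered 27, and 18 of them had more read pairs with the inner anchor. Of these 27, 18 lay upstream, where the outer anchor was nearer by about the distance between the promoters. The inner anchor had 528 read pairs with those 18 and the outer anchor 521, although the median span was 264 kb from the inner and 121 kb from the outer. Within the 18, the inner anchor had more read pairs in 10, the outer in 5, and 3 were equal. The differences ran from 31 in favour of the outer to 16 in favour of the inner. The outer anchor was the wider of the pair, at 11.1 kb against 8.07 kb.

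The promoter loops were long and strong for their length. Their median span was 178 kb, against 90.9 kb for all T-47D loops with a protein-coding promoter and 85.8 kb for all loops. The 95% order-statistic interval of 142 to 230 kb takes the loops as independent, although they share anchors. Spans ran from 6 to 1274 kb, and 5 reached 1 Mb. Each loop was also set against the median of all T-47D loops in its span bin. Of the 91 promoter loops, 47 (51.6%) had at least 3 times that median, compared with 8.46% of all T-47D loops. For loops to distal anchors the median ratio was 6.5 at the inner anchor, 5 at the outer and 2.25 at the small anchor. The span bins take no account of anchor width, and the small anchor was the narrowest. The largest ratio among the 91 was 36.5, for the loop between the inner and outer promoters. The loop from the inner anchor to the intronic anchor beside it was at 20.3 times the median, and that from the outer anchor to the region 25.9 kb upstream was at 17.4 times.

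TRPS1 promoters also touched promoters of other genes upstream, but weakly. In all, 28 read pairs went to 4 anchors with other promoters, from 946 to 1129 kb away. EIF3H, a subunit of a translation initiation factor, was joined by 4 loops with 22 read pairs. Of these, 17 read pairs in 3 loops went to an anchor that EIF3H shares with UTP23, a ribosome biogenesis gene. RAD21, a cohesin subunit, and AARD were joined by 3 read pairs each. None of these pairs was joined in LNCaP or Ishikawa, although the EIF3H promoters had 150 read pairs in LNCaP against 88 in T-47D and the RAD21 promoters 37 against 20. Scaled to the lists, T-47D was the higher, with a share 3.02 times the higher of the others for EIF3H and 2.78 times for RAD21. In Ishikawa both genes had 10. Of the other protein-coding genes within 2 Mb, SLC30A8 and MED30 had promoter loops only in the Ishikawa list, with 34 and 4 read pairs, and EXT1 had 4 in T-47D and 3 in LNCaP. Of these neighbours, UTP23 (73 read pairs in T-47D, 65 in LNCaP and 4 in Ishikawa) had a T-47D share 5.77 times the higher of the others. AARD (6 in T-47D, 0 in both others, each taken as 3) had 5.92 times. Both thus passed the limit of 4, as did 10.9% of protein-coding genes with a promoter loop. Of their T-47D read pairs, 17 of UTP23 and 3 of AARD were in loops with TRPS1 promoters.

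The whole 1 Mb window was examined next, to see whether contacts among distal anchors followed the promoters. T-47D had 238 loops inside it with 5305 read pairs (95% Poisson interval 5163 to 5450). LNCaP had 10 loops with 127 (106 to 151), and Ishikawa 31 loops with 149 (126 to 175). These were 1.51% of all read pairs in the T-47D list, 0.00703% in LNCaP and 0.0143% in Ishikawa. The T-47D share was 215 times that of LNCaP (exact 95% interval 180 to 258) and 105 times that of Ishikawa (89.6 to 125).

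**Figure D3:**
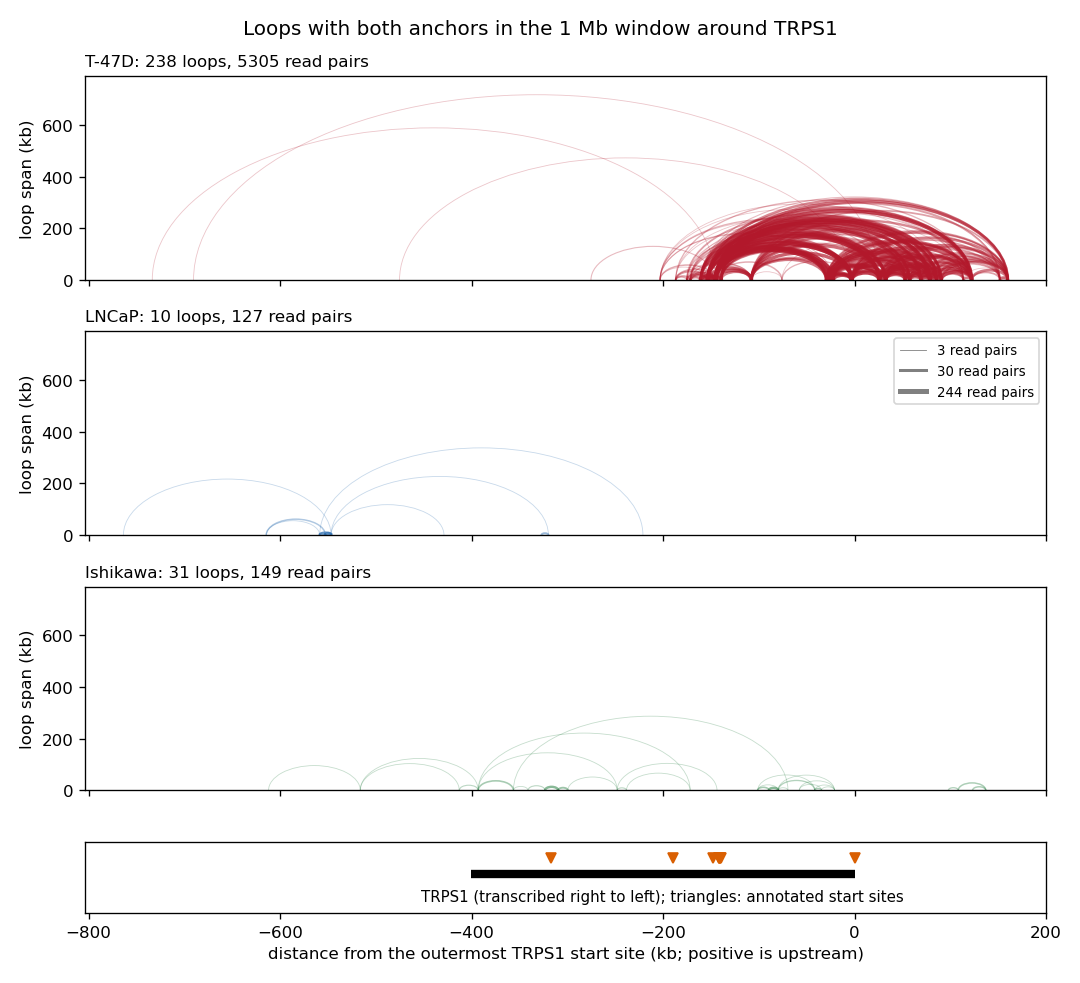
Loops with both anchors in the 1 Mb window in each list, drawn as arcs between anchor centres against distance from the outermost TRPS1 start site in kb (x axis); arc height is the span in kb (y axis), and thicker, darker arcs have more read pairs on a log scale. The 238 T-47D arcs crowd around the start sites of the gene and the region upstream, with 204 of them from -161 to 160 kb. In that stretch lie 0 of the 10 LNCaP arcs and 15 of the 31 Ishikawa arcs, which are thin and low.

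Loops that touched no promoter made up most of the T-47D window. They numbered 173 (72.7%) and held 2987 read pairs, the strongest with 109, between the neighbouring intergenic anchors 25.9 and 32.4 kb upstream. In the whole list most loops did touch one, as 31988 of 42027 had a protein-coding promoter. Most of the 30 anchors of the window held no promoter, so most of the possible pairs there touch none. The 173 loops had a median strength of 2.4 times that of loops of like span. The 62 loops that joined a TRPS1 promoter to a distal anchor had 4.62 times. Loops to all distal anchors, also outside the window, had medians of 6.5 and 5 at the inner and outer anchors. At the narrower small anchor the median was 2.25, and width was not adjusted for. Among the 30 T-47D anchors of the window, 54.7% of the 435 possible pairs were joined. Of 76 other bins of 1 Mb with 25 to 35 T-47D anchors, 0 reached that percentage, their median was 20.3% and their highest 54.1%. Most of these loops lay among the 22 anchors from -161 to 160 kb, where 204 of 231 possible pairs (88.3%) were joined and 96.1% of the read pairs of the window were found. The anchor at -75.8 kb, inside that stretch, was joined to only 4 of the others.

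**Figure D4:**
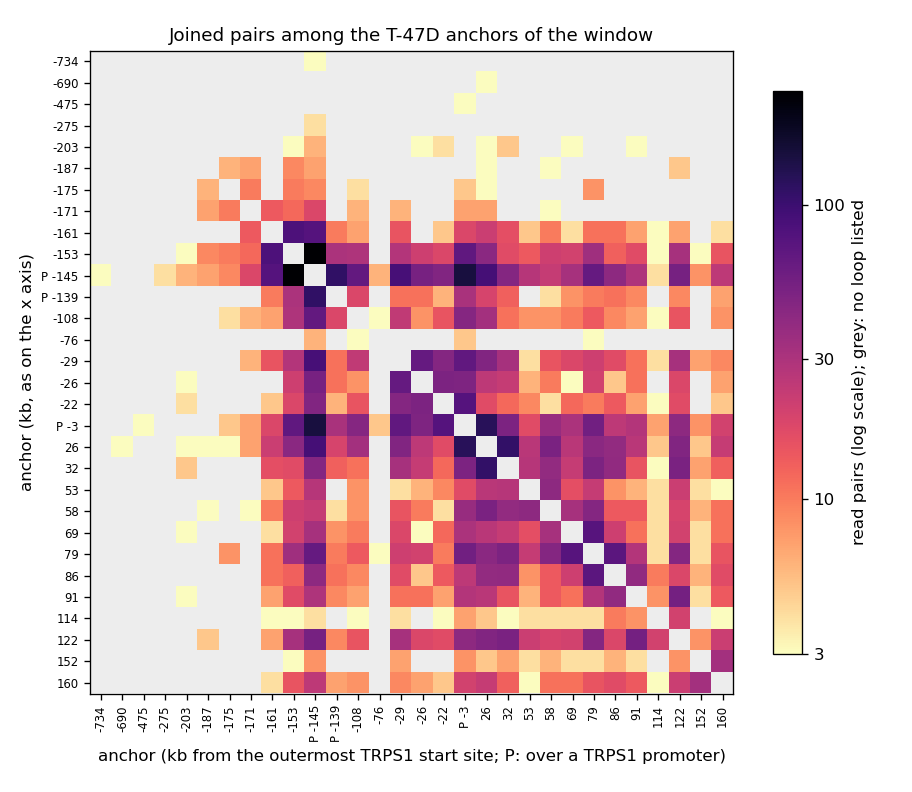
Read pairs (colour, log scale) of each pair among the 30 T-47D anchors of the window, with anchors on both axes in order and labelled by their distance in kb from the outermost start site; P marks the 3 anchors over TRPS1 promoters and grey a pair with no loop. The block from -161 to 160 kb is filled for most pairs, and the rows of the promoter anchors at -145 and -3 kb are the darkest.

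The T-47D contacts also extended past the window on the upstream side only. The window is not centred on the promoters, as the outermost start site at 116821899 lies nearer its upper edge at 117000000. From the promoter anchors a downstream contact therefore needs a longer span to leave it. A further 133 T-47D loops with 1015 read pairs had 1 anchor inside it. Of these, 23 (360 read pairs) ended at an anchor in LINC00536 that lies across the upper edge of the window (116998368 to 117000737), 109 (652 read pairs) ended within 1 Mb above it, and 0 ended below it. The remaining loop, of 3 read pairs, joined the anchor at 116889115 to 116893317 with the RNF139 promoter 8596 kb away. In LNCaP 3 loops left the window on the lower side, 5 ended within 1 Mb above it and 3 at an anchor across an edge. In Ishikawa 4 ended below the window and 2 above it.

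The window was next set beside other bins of 1 Mb, counting only loops that lie within a single bin, so that the loops across the upper edge described above are left out. The ratio of the T-47D share to the mean share of both other lists was 141 here, the highest of 519 bins of 1 Mb with 20 or more T-47D loops, of which 5.39% had a ratio of 10 or more. The window was proposed for this ratio, so its rank only describes it. In the 20 other bins within 10 Mb the ratio ran from 0.068 to 1.64, with a median of 0.432 where any list had a loop. A list with no loop in a bin was counted as 3 read pairs. The lowest ratio is of a bin with 0 T-47D loops and so rests on that floor. T-47D had 0 to 30 loops in each of these bins, with a median of 2, and at most 177 read pairs. By read pairs the TRPS1 bin ranked 2 of 2827 bins in T-47D, 1483 in LNCaP and 1727 in Ishikawa.

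**Figure D5:**
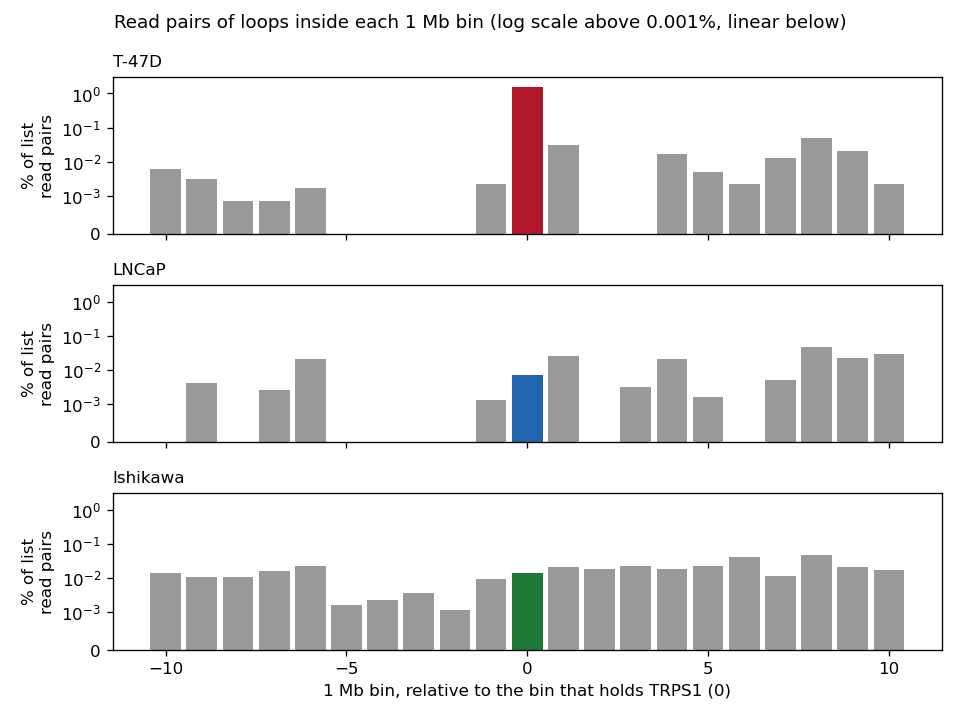
Percent of the read pairs of each list (y axis, log scale above 0.001% and linear below) in loops that lie within single 1 Mb bins of chromosome 8, by bin relative to the TRPS1 bin at 0 (x axis, coloured bar). T-47D stands far above its neighbouring bins at 0, whereas the LNCaP and Ishikawa bars there are within the range of theirs.

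Loops of the T-47D window were then looked for in the other lists, a loop counting as found when both its anchors overlapped those of 1 loop there by 1 bp or more. Of the 91 promoter loops, 0 were found in LNCaP, against 38.9% of all T-47D loops. None was found in Ishikawa, against 9.93% of all. Each of those lists held only 1 TRPS1 promoter loop and no anchor over the outermost start site, so almost none of the 91 could have been found, and these values follow from the loop counts above. Of the 238 loops in the window, 0 were found in either list, which held 10 and 31 loops there. Anchors were shared somewhat more often. Of the 30 T-47D anchors in the window, 4 overlapped a LNCaP anchor (13.3%, 5.31 to 29.7), compared with 61.1% of all T-47D anchors. With Ishikawa 8 overlapped (26.7%, 14.2 to 44.4), compared with 50.3%. The Ishikawa anchors are wider (median width 5.1 kb, T-47D 2.61 kb) and covered 16.4% of the window, against 2.37% for LNCaP. Of the 36 linked distal anchors, 7 overlapped a LNCaP anchor and 5 an Ishikawa anchor. The 7 were all in LINC00536, farther upstream or beyond the end of the gene, and 0 of the 22 from -275 to 122 kb overlapped a LNCaP anchor.

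The LNCaP contacts of the window lay elsewhere. Its 3 strongest anchors stood together in intergenic DNA from 116261876 to 116277097, 144 kb beyond the end of the gene, and the 3 loops among them held 95 of the 127 read pairs (74.8%). Those loops had 58, 28 and 9 read pairs, and 0 T-47D anchors overlapped the region. The third strongest LNCaP loop, with 11 read pairs, joined a pair of anchors in TRPS1 introns (116493773 to 116496024 and 116500694 to 116503604), and it was the only LNCaP loop with both anchors inside the gene. In Ishikawa 24 of the 31 loops (77.4%) had both anchors inside the gene, against 47 of 238 in T-47D (19.7%). Those 24 loops were short, with a median span of 22.3 kb. They had at most 16 read pairs, and their median strength was 1 times that of loops of like span. The median span of the Ishikawa window was 23.2 kb, its 2 strongest loops had 16 read pairs each, and both joined neighbouring intronic anchors. Of its 31 loops, 25 were in only 1 of the 4 parts of the list, 5 in 2 and 1 in 3. Set against loops of like span in their own list, the window's loops had a median ratio of 1 in Ishikawa, 0.784 in LNCaP and 2.75 in T-47D.

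Genes that act in luminal breast epithelium, among which TRPS1 is counted, were compared by the same measure. Of 15 such genes, 6 had a T-47D share at least 4 times the higher of the others (10.9% of the genes with a promoter loop). A LNCaP share of that kind was found for 2 (7.03% of genes) and an Ishikawa share for 0 (8.54%), counts near those shares. The list was chosen with earlier results of these data known. GATA3, a GATA factor that specifies luminal cells, had 1063 read pairs in T-47D, 0 in LNCaP and 7 in Ishikawa. PGR, the progesterone receptor, had 517, 0 and 3. TFAP2A, TFAP2C, ZNF703 and MYB were the others, with 131, 77, 158 and 31 in T-47D. By contrast GRHL2 and XBP1 had 0 read pairs in T-47D and 3447 and 537 in LNCaP. FOXA1, a pioneer factor of both tissues, had 908 in T-47D and 6348 in LNCaP, which scaled to the lists met the limit in neither line. ESR1, the estrogen receptor, had 195, 8 and 299. TRPS1, with 2557 read pairs in T-47D, was above each of the 15 there.

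Among the 6 GATA family genes, GATA3 and GATA5 met the limit for T-47D, the latter with 17 read pairs against 0 in both others. These are 2 of 6, where 10.9% of genes met it. GATA2, 1 of 6 where 7.03% of genes did, met it for LNCaP, with 1039 read pairs against 41 in T-47D and 41 in Ishikawa. Of the 5 Ikaros family genes, whose fingers resemble those of TRPS1, 0 met it for T-47D and 1, IKZF3, for Ishikawa with 60 read pairs, where 8.54% of genes did. Counts of 1 in families of this size are near those shares. The genes whose percentiles over the 3 lists were most like those of TRPS1 (100 in T-47D, 44 in LNCaP and 45.7 in Ishikawa) were CTSD, which encodes the lysosomal protease cathepsin D, and ENSG00000250644, annotated over the same anchors. Both had 301, 3 and 3 read pairs, with a largest difference of 1.27 percentile points. SLC6A6, the taurine transporter, followed with 102, 4 and 5, and then the cytokine gene CLCF1 and ENSG00000256514, each with 128, 13 and 3. All of these were far below TRPS1 in T-47D read pairs.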

How the data were processed

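Per the labels, chromatin of Ishikawa (4 samples), T-47D (1) and LNCaP (2) was assayed by H3K27ac HiChIP. The authors aligned reads to hg19 with HiC-Pro, called loops with hichipper, removed loops under 3 read pairs or past a false discovery rate limit and combined samples into 1 list per line. The deposited values are counts of read pairs per anchor pair, not scaled for depth, and the minimum listed was 3.

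Rows of the same anchor pair were summed over the 4 sorted parts of the Ishikawa list, which nothing assigns to samples, so DMSO and E2 were not compared. Pairs of an anchor with itself were left out of loops (the LNCaP list holds none). Promoters were 500 bp windows over start sites of 20163 protein-coding genes (GENCODE 44 lifted to GRCh37). Coordinates count from 1. With 1 list per line no test was run. Intervals (95%) are Poisson or exact for read pairs, Wilson for shares and from order statistics for medians. Strength is the read pairs of a loop over the median of loops in 1 of 20 logarithmic span bins from 5 kb to 2 Mb.

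Named were TRPS1, genes with promoters joined to it, protein-coding genes within 2 Mb, the 5 genes nearest in percentiles, the listed families and markers, and the strongest loops. The members and lists were chosen with earlier results of these data known. On simulated loops with anchors centred on 1 start site per gene, the planted anchors of 200 of 200 genes were found. This checks only the linking step, since real anchors can cover several start sites or part of a promoter window. Python 3.11.15, pandas 2.3.3 and scipy 1.17.1 were used. The alternatives tried were higher minima, thinning to the list with the fewest read pairs, other promoter windows, start sites, overlaps, spans and window rules, and Ishikawa loops in several parts.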

Additional observations from a re-analysis of the deposited data

Results flagged for a closer look

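Pairs of an anchor with itself are not loops and enter no comparison above, but T-47D listed many at TRPS1. The inner promoter anchor held 315 such read pairs, rank 23 of 15042 T-47D anchors that have any, and the outer promoter anchor 139, rank 155. The small promoter anchor had none listed. All anchors of the 1 Mb window together held 1338, against 55 in Ishikawa, and the LNCaP list holds no such pairs to compare. In T-47D this was 0.433% of the self pairs of the list, whereas the loops of the window were 1.51% of its loop read pairs. Per 100 loop read pairs there were 25.2 self pairs in the window and 87.9 in the whole list. These values have no control samples and no replicate.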

How the results depend on the processing

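No paired analysis was possible because each line has 1 combined list and no test was run. Of 42 recomputed values, 19 stayed within limits from Poisson, Wilson or order-statistic intervals or, for counts of anchors, within 1.5 times, and 23 moved. In T-47D the linked distal anchors numbered 20 at a minimum of 10 read pairs and 31 to 36 otherwise, promoter read pairs fell to 2330 and the median span to 131 kb at that minimum, while the percent of distal anchors inside the gene ran from 33.3 to 35.5. The single linked anchor of LNCaP became 0 at minima of 5 and 10, after thinning and with 1 start site per gene, and 3 with promoter windows of 2 kb, which take in the LNCaP anchor beside the start site at 116504448. The single one of Ishikawa became 0 under the same alternatives other than the wider window, and also where loops had to be in 2 or more parts. LNCaP promoter read pairs became 18 with 2 kb windows and 0 at a minimum of 10 or after thinning. Ishikawa promoter read pairs also became 0 at that minimum or after thinning. The ratio of 141 for the window became 197 and 336 at minima of 5 and 10, 191 after thinning, 137 with at least 1 anchor inside and 269 for spans of 20 kb to 1 Mb. The percent of T-47D promoter loops found in LNCaP was 0 in all 4 alternatives, as the single LNCaP promoter loop leaves almost none to be found. The T-47D list comes from 1 sample and holds the fewest read pairs, so how far its values vary between samples is not known here. Contacts of LNCaP and Ishikawa under 3 read pairs, or of any size that missed the study's false discovery rate limit, cannot be seen, and sequencing depth was not matched.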
